A study of Trichoderma atroviride with 42 samples.

Results

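The comparison described here is that of Trichoderma atroviride mycelium 4 h after scalpel injury with untreated mycelium of the late control. It holds 6 of the 42 RNA-seq libraries of the series, the 3 libraries of the 4 h injury group (MI_4h, MI for mechanical injury) and the 3 of the late control (CT8), chosen by the labels of the count table's columns. Trichoderma atroviride is a filamentous soil fungus that parasitises other fungi and is used in biological control of plant disease. In both groups conidia had been grown into mycelium in darkness at 27 °C for 36 h, on cellophane laid over potato dextrose agar. MI_4h mycelium was cut with a scalpel and collected 4 h later, while CT8 plates were only opened for 2 min in the dark and collected at 8 h. No control of 4 h is among the samples, so injury and time of collection cannot be told apart from CT8 alone, and the early control (CT0) is given beside it. CT0 carries a label of time 0, though the 30 min given for it in the design text of the series differs from that. Mycelium 8 h after the scalpel (MI_8h) serves as a further group. So does mycelium 4 h after 10 min of grazing by Drosophila melanogaster larvae (Dm_4h) or by the collembola Orthonychiurus folsomi (Of_4h). Mycelium 30 min and 90 min after the scalpel is given for the course over time. Each of these groups has 3 libraries. Each library is an independent biological replicate pooled from 3 technical ones, per the series' design text. Whole mycelium was extracted, so a change in few cells near the cut and a change in all cells cannot be told apart, nor can fewer cells of a type and less RNA per cell.

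When a hypha is cut, the broken compartment is sealed off by plugged septal pores and new tips grow from the neighbouring cells. In Trichoderma atroviride wounding is also known to trigger oxidant, calcium and lipid-derived signals, and to set off the formation of conidia, the asexual spores. Regrowth calls on the machinery that builds a hyphal tip: actin and microtubules, wall polymers and the enzymes that loosen them, membrane traffic and new ribosomes.

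The MI_4h libraries held 4712130, 5398093 and 5061985 counts and the CT8 libraries 4296583, 3541691 and 4326835. The lowest correlation of log2 CPM between libraries of a group was 0.9865 in MI_4h and 0.9892 in CT8. CT0 replicate 2 stood apart, with 1152096 counts, of which a single gene took 16.9%, so statements that rest on CT0 were also computed without it. No transcript is a direct mark of a cut, so the label could be checked only by how the libraries group. On principal component 2 (18.1% of variance), picked because it separated them most, MI_4h lay at -25.14 to -16.65 and CT8 at 13.76 to 18.96. On component 1 (41.7%) MI_4h lay at -15.71 to -3.85 and CT8 at -21.79 to -18.47. There MI_4h overlapped the untreated CT0 libraries, at -21.27 to -7.39.

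**Figure D1:**
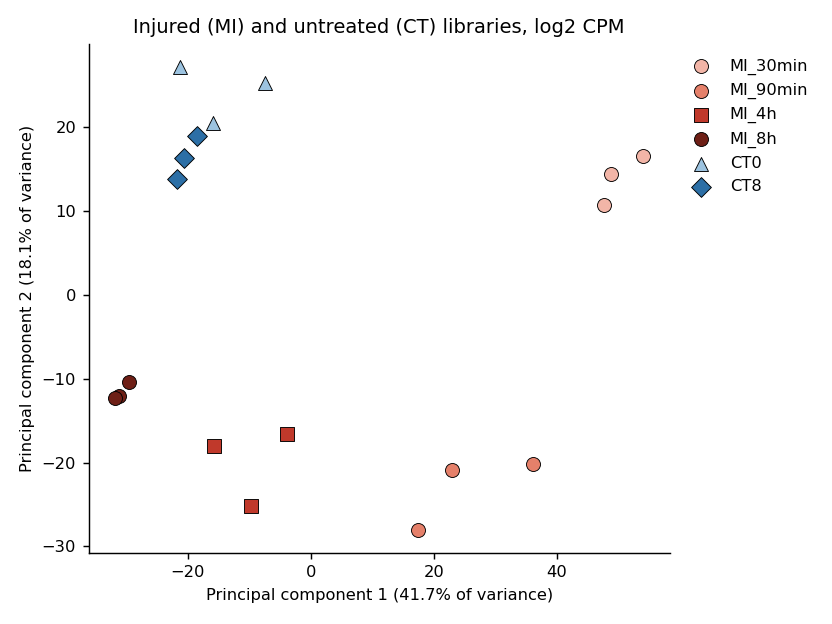
Principal components of log2 CPM of the injury and control libraries, 1 point per library, with the share of variance on each axis (41.7% and 18.1%). The 3 MI_4h libraries lie between -25.14 and -16.65 on component 2, where the 3 CT8 libraries lie between 13.76 and 18.96 and the CT0 libraries between 20.49 and 27.16, while on component 1 MI_4h lies between the 90 min and the 8 h injury libraries.

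The comparison asks which transcripts still differ from the untreated state 4 h after the cut. Of 9193 genes tested with edgeR's quasi-likelihood test, 2246 were called at a Benjamini-Hochberg adjusted p under 0.05 (24.4%), with 1098 higher (11.9%) and 1148 lower (12.5%) in MI_4h. Most changes were small, with a median absolute log2 fold change of 0.57 among the called genes. At least 2-fold changes numbered 374 (4.07%), of which 204 were rises (2.22%) and 170 were falls (1.85%). Rises reached further than falls, with 63 against 28 genes changed at least 4-fold and 22 against 5 changed at least 8-fold. Scaling by library totals in place of TMM factors gave 2054 calls, of which 1298 were higher and 756 lower, so the even split between directions rests on the scaling. The median log2 change of all genes was 0.08 with library totals and 0.02 with TMM factors. Product texts name 2865 of the genes tested, all listed by the authors for injured mycelium at 30 min, so every gene list below holds genes selected on other injured samples of the series. Of them 15.1% were called higher and 17.6% lower, the shares against which the counts of list members are to be read.

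Both controls gave a narrower set. Against CT0 1594 genes were called (17.3%), 771 higher (8.39%) and 823 lower (8.95%) in MI_4h. In the same direction against both controls 927 were called (10.1%), 456 higher (4.96%) and 471 lower (5.12%), and 16 were called in opposite directions (0.174%). Without CT0 replicate 2, 1356 were called against CT0 and 810 in the same direction against both. The untreated groups differed from each other in 773 genes (8.41%). The authors' deposited table for this group lists 774 genes, 448 higher and 326 lower. Of these, 763 were called here against CT8 in the same direction and 0 in the other. That table comes from the same libraries, so the overlap is no independent check. It names no control and lists genes at a false discovery rate of at most 0.00488, a stricter threshold than the one used here.

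The collembola-grazed group Of_4h, with 3 libraries, was collected at the same hour as MI_4h. It differed from CT8 in 19 genes (0.207%), most of them lower in Of_4h. MI_4h differed from Of_4h in 3091 genes (33.6%), 1544 higher and 1547 lower (16.8% each). The CFEM gene Tatro_008185-T1, described below, had 108, 159 and 85.8 CPM in MI_4h, against 10.4, 11.6 and 13.1 CPM in Of_4h (log2 3.32 ± 0.28, adjusted p = 4.41e-11). Actin, Tatro_010755-T1, had 2262, 2198 and 2427 CPM in MI_4h, against 3995, 4309 and 4410.1 CPM in Of_4h (log2 -0.88 ± 0.10, adjusted p = 4.78e-09). For both genes, given as examples only, the Of_4h levels were close to those of CT8. That did not hold for every gene named below. The transcription factor Tatro_004118-T1 was lower in Of_4h than in CT8 (log2 -1.35 ± 0.28, adjusted p = 0.0256). It had 106, 91.4 and 103 CPM in Of_4h, against 269, 226 and 269 CPM in CT8. The hydrophobin Tatro_007246-T1 had 2.97, 1.05 and 2.45 CPM in Of_4h. Its difference from CT8 was not called (log2 -1.77 ± 0.45, adjusted p = 0.0774).

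The genes described first were called, had a product text, reached at least 10 CPM on average in the higher group and did not overlap between MI_4h and CT8. By this rule a transcript for a histidine-specific methyltransferase had the largest rise. This gene, Tatro_007178-T1, had 26.9, 23.7 and 16.5 CPM in MI_4h, against 1.62, 1.71 and 1.80 CPM in CT8. The groups lay far apart, a 12.8-fold rise (log2 3.68 ± 0.50, adjusted p = 9.32e-07), though the CT8 values rest on 6 to 8 counts a library. Its neighbour by number Tatro_007179-T1, with the core domain of catalases, the enzymes that break down hydrogen peroxide, had 32.4, 34.1 and 21.7 CPM in MI_4h, against 3.46, 3.14 and 4.96 CPM in CT8, a 7.47-fold rise (log2 2.90 ± 0.40, adjusted p = 1.59e-06). A CFEM domain protein, Tatro_008185-T1, of a family of cysteine-rich fungal surface proteins, had 108, 159 and 85.8 CPM in MI_4h, against 13.8, 12.5 and 9.47 CPM in CT8. All 3 injured libraries lay above all 3 controls, as the rule required, and the rise was 9.87-fold in the fit (log2 3.30 ± 0.28, adjusted p = 7.23e-11). The cerato-ulmin hydrophobin Tatro_007246-T1, a small amphipathic secreted protein of the kind that coats aerial hyphae and spores, had 69.4, 52.9 and 96.0 CPM in MI_4h, against 10.6, 5.13 and 6.09 CPM in CT8. It rose 9.82-fold (log2 3.30 ± 0.27, adjusted p = 1.81e-11), and against CT0 by a log2 of 4.96.

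Further genes follow from the 12 largest rises by the same rule. A glycosyltransferase of family 1, Tatro_006627-T1, had 148, 179 and 151 CPM in MI_4h, against 34.9, 35.4 and 32.2 CPM in CT8 (log2 2.22 ± 0.34, adjusted p = 7.79e-06). The cytochrome P450 Tatro_001233-T1 had 359, 237 and 283 CPM in MI_4h, against 80.1, 76.2 and 71.5 CPM in CT8 (log2 1.95 ± 0.26, adjusted p = 1.06e-06). The injured libraries lay above the controls without overlap for either gene, as the rule required. A SUR7/Rim9-like membrane protein, Tatro_003697-T1, of a family that in yeast marks stable plasma membrane domains or takes part in pH sensing, had 61.1, 58.9 and 43.0 CPM in MI_4h, against 16.8, 14.8 and 11.3 CPM in CT8 (log2 1.92 ± 0.25, adjusted p = 3.88e-07). Tatro_007177-T1, with an aminoglycoside phosphotransferase fold, rose 3.88-fold (log2 1.96 ± 0.29, adjusted p = 5.41e-06). These 4 genes were each also called higher against CT0, with and without its replicate 2.

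The largest falls by the same rule included carbohydrate-binding proteins. The WSC domain protein Tatro_002948-T1, whose domain binds carbohydrate, had 2.02, 4.46 and 1.85 CPM in MI_4h, against 21.7, 22.2 and 18.3 CPM in CT8, a 7.28-fold fall (log2 -2.86 ± 0.32, adjusted p = 2.19e-08). Tatro_002916-T1, of glycoside hydrolase family 71, the alpha-1,3-glucanases, had 4.25, 11.4 and 5.75 CPM in MI_4h, against 41.3, 26.8 and 35.8 CPM in CT8 (log2 -2.26 ± 0.27, adjusted p = 7.95e-08). A lectin or glucanase with a concanavalin A-like fold, Tatro_007347-T1, had 9.50, 7.68 and 12.2 CPM in MI_4h, against 42.2, 35.9 and 34.3 CPM in CT8 (log2 -1.93 ± 0.34, adjusted p = 6.89e-05). In all 3 genes every injured library lay below every control, as the rule of choice required. Against CT0 the last was called lower with all 3 libraries (log2 -1.28, adjusted p = 0.0137) and not without replicate 2 (log2 -1.10, adjusted p = 0.05).

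Of the genes with a cellulose-binding domain, which tethers secreted enzymes to cellulose, 2 were among the 12 largest falls. Tatro_010796-T1 had 35.8, 37.7 and 38.9 CPM in MI_4h, against 129, 131 and 116 CPM in CT8 (log2 -1.74 ± 0.21, adjusted p = 1.65e-07), and its difference from CT0 was as large (log2 -1.73). Tatro_011946-T1 had 13.3, 12.5 and 15.6 CPM in MI_4h, against 37.9, 47.9 and 49.1 CPM in CT8 (log2 -1.70 ± 0.27, adjusted p = 1.83e-05). Over all 7 genes with this text, a group picked after its values were seen, 3 were lower and 1 was higher (median log2 -0.83). Other large falls were those of Tatro_010791-T1, with the double-psi barrel also found in expansins (log2 -1.90 ± 0.29, adjusted p = 7.79e-06), the fibronectin type III-like Tatro_004668-T1 (log2 -1.89 ± 0.28, adjusted p = 4.44e-06) and the dimeric alpha-beta barrel protein Tatro_002075-T1 (log2 -2.37 ± 0.26, adjusted p = 1.93e-08). Tatro_001177-T1 with an NAD(P)-binding domain and Tatro_002727-T1 with an aldolase-type barrel changed by a log2 of -2.14 and -1.97.

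Among these falls, 2 were not called against CT0. The FAD/NAD(P)-binding gene Tatro_007351-T1 had 39.2, 44.6 and 59.1 CPM in MI_4h, against 146, 143 and 166 CPM in CT8 (log2 -1.67 ± 0.25, adjusted p = 5.29e-06), while CT0 held 59.0 ± 9.38 CPM (log2 -0.33, adjusted p = 0.442). The AMP-binding enzyme Tatro_007096-T1 had 13.3, 15.0 and 18.0 CPM in MI_4h, against 40.9, 53.3 and 52.1 CPM in CT8 (log2 -1.65 ± 0.33, adjusted p = 0.000308), and against CT0 log2 -0.91, adjusted p = 0.074. The CT8 libraries of both genes stood above MI_4h without overlap, as the libraries of the 2 groups did in 46.9% of all genes tested, in one direction or the other.

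**Figure D2:**
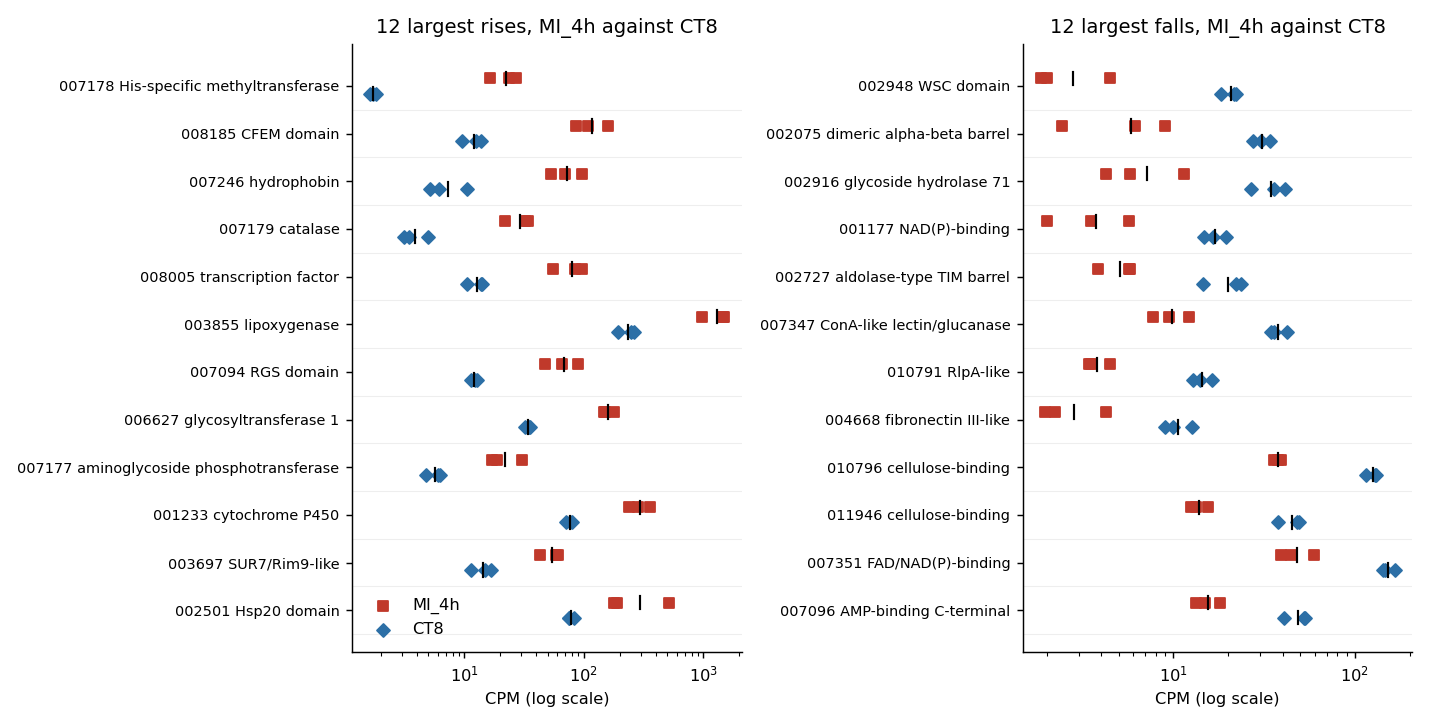
CPM on a log axis in each library of MI_4h (squares) and CT8 (diamonds) for the 12 largest rises and the 12 largest falls with a product text, with a tick at each group's mean. The 2 groups do not overlap in any of the 24 genes, as the rule of choice required, and the rises span from 3.79-fold (Hsp20) to 12.8-fold (histidine-specific methyltransferase).

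Lipoxygenases add oxygen to polyunsaturated fatty acids, the first step to oxylipins. The lipoxygenase Tatro_003855-T1 had 1488, 1461 and 981 CPM in MI_4h, against 246, 192 and 264 CPM in CT8, a 5.58-fold rise (log2 2.48 ± 0.28, adjusted p = 2.68e-08). RGS domain proteins speed GTP hydrolysis by G proteins and so end their signal, and both genes with this text rose. Tatro_007094-T1 had 89.4, 47.7 and 65.6 CPM in MI_4h, against 11.3, 12.8 and 12.2 CPM in CT8 (log2 2.48 ± 0.26, adjusted p = 6.24e-09), and Tatro_004091-T1 had 64.5, 26.8 and 33.7 CPM in MI_4h, against 15.2, 15.97 and 17.6 CPM in CT8 (log2 1.35 ± 0.20, adjusted p = 4.75e-06). Each also rose against CT0. None of the 3 G-protein coupled receptors tested was called, and the family 2-like receptor Tatro_008852-T1 had 61.9, 66.1 and 50.6 CPM in MI_4h, against 55.9, 47.3 and 51.4 CPM in CT8 (log2 0.21 ± 0.15, adjusted p = 0.328).

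MAP kinases relay stress and growth signals by phosphorylation, so their transcript levels need not follow their activity. Tatro_000708-T1 had 184, 191 and 187 CPM in MI_4h, against 260.4, 245 and 256 CPM in CT8 (log2 -0.44 ± 0.09, adjusted p = 0.000457). Its injured libraries were all below the controls, yet against CT0 it was not called (log2 -0.11, adjusted p = 0.459). A second MAP kinase, Tatro_003677-T1, had 132, 137 and 140.2 CPM in MI_4h, against 156, 153 and 155 CPM in CT8 (log2 -0.18 ± 0.08, adjusted p = 0.11) and was higher than CT0 (log2 0.45, adjusted p = 0.000236). The Ssk2/Ssk22-type MAP kinase kinase kinase Tatro_005384-T1, which in yeast acts in the osmotic stress cascade, had 162, 162 and 173 CPM in MI_4h, against 148, 155 and 149.7 CPM in CT8 (log2 0.13 ± 0.09, adjusted p = 0.288). No tested gene carried a text that names an NADPH oxidase.

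Of 16 calcium signalling genes 3 were higher and 1 lower (median log2 -0.07), with 1 higher without MI_4h replicate 1 or CT8 replicate 2. The EF-hand gene Tatro_003395-T1, with a calcium-binding motif, had 54.2, 56.1 and 42.6 CPM in MI_4h, against 20.1, 23.1 and 26.6 CPM in CT8 (log2 1.13 ± 0.16, adjusted p = 2.09e-06), while CT0 held 44.0 ± 1.62 CPM (log2 0.21, adjusted p = 0.393). The CT8 libraries lay below those of MI_4h without overlap. Among 128 transcription factor genes 15 were higher and 25 lower (median -0.05), and 14 and 13 without MI_4h replicate 1. The fungal transcription factor Tatro_008005-T1 had 96.6, 85.0 and 55.6 CPM in MI_4h, against 13.8, 10.6 and 13.98 CPM in CT8, a 6.11-fold rise (log2 2.61 ± 0.28, adjusted p = 9.94e-09). A second, Tatro_004118-T1, had 532, 432 and 679.9 CPM in MI_4h, against 269, 226 and 269 CPM in CT8 (log2 1.10 ± 0.27, adjusted p = 0.00251). For the C2H2 zinc finger gene Tatro_002233-T1 the groups overlapped, at 42.1, 108 and 29.9 CPM in MI_4h, against 29.3, 32.8 and 21.4 CPM in CT8 (log2 1.12 ± 0.35, adjusted p = 0.0154). That call rested on MI_4h replicate 2, without which the log2 change was 0.37 (adjusted p = 0.461), and it was also lost without CT8 replicate 3 (log2 0.95, adjusted p = 0.084). Of 58 protein kinase and phosphatase genes 5 were higher and 15 lower, 2 and 11 without MI_4h replicate 1, and 1 and 12 without CT8 replicate 1. The CHK kinase-like gene Tatro_011195-T1 had 488, 581 and 639.9 CPM in MI_4h, against 1462, 1552 and 1345 CPM in CT8 (log2 -1.35 ± 0.15, adjusted p = 3.82e-08). This was the largest fall of the list, though the gene's text does not name a protein kinase. No other member of the list fell at least 2-fold.

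Glycoside hydrolases, which cleave wall and substrate polysaccharides, were more often lower than higher. Of 45 tested, 19 were lower and 3 higher (42.2% and 6.67%, median log2 -0.45), against 17.6% and 15.1% of all genes with a text. At least 2-fold changes were 12 falls and 2 rises, where over all genes tested 1.85% fell and 2.22% rose that far. Against CT0 19 were lower and 5 higher, and 15 were lower against both controls (14 without CT0 replicate 2). Tatro_010889-T1, of the glycoside hydrolase superfamily, had 31.9, 27.9 and 25.8 CPM in MI_4h, against 83.6, 96.4 and 71.5 CPM in CT8 (log2 -1.55 ± 0.14, adjusted p = 3.23e-10). The family 28 gene Tatro_010893-T1, of the family of pectin-cleaving polygalacturonases, had 3.03, 11.6 and 10.8 CPM in MI_4h, against 26.1, 24.2 and 20.3 CPM in CT8 (log2 -1.45 ± 0.28, adjusted p = 0.000195). All 3 genes of family 71 were lower, a group picked after its values were seen. In the family 28 gene and the superfamily gene the 2 groups did not overlap.

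Genes that build the wall went both ways. Of 21 in the list of wall synthesis and glycosyltransferases 3 were higher and 5 lower, or 2 and 3 without CT8 replicate 1. The chitin synthase Tatro_003420-T1 had 90.0, 91.4 and 87.3 CPM in MI_4h, against 55.9, 58.2 and 64.0 CPM in CT8, a 1.51-fold rise (log2 0.59 ± 0.16, adjusted p = 0.00565). A second chitin synthase, Tatro_001815-T1, picked after its values were seen, had 530.3, 606 and 618 CPM in MI_4h, against 830.2, 934 and 856 CPM in CT8 and fell 1.49-fold (log2 -0.58 ± 0.11, adjusted p = 0.00013). Chitin synthases thus differed in sign between members, by similar amounts. The glycosyltransferase with a DXD motif Tatro_003049-T1 had 39.6, 51.1 and 35.04 CPM in MI_4h, against 93.7, 102 and 98.3 CPM in CT8 (log2 -1.22 ± 0.25, adjusted p = 0.000465).

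Surface proteins were as divided. Of 14 tested 5 were higher and 6 lower (median log2 -0.54), and the falls numbered 3 with library totals as the scale, 2 without MI_4h replicate 1, MI_4h replicate 3 or CT8 replicate 1 and 3 without CT8 replicate 3. Outside that list, the FAS1 domain gene Tatro_006915-T1, of a family of cell adhesion proteins, had 339, 261 and 266 CPM in MI_4h, against 109, 101 and 122 CPM in CT8 (log2 1.38 ± 0.13, adjusted p = 9.96e-10). Of 5 genes with a WSC domain 2 were higher and 2 lower. Tatro_004709-T1 of this family had 8.69, 13.9 and 8.90 CPM in MI_4h, against 29.3, 27.7 and 20.5 CPM in CT8 (log2 -1.28 ± 0.28, adjusted p = 0.000804).

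Cytoskeletal transcripts were lower or not called. Of 37 genes of the cell cycle and cytoskeleton list 16 were lower and 0 higher (median log2 -0.20), and 10 were lower without MI_4h replicate 1. With library totals as the scale 11 were lower. Against both controls 7 were lower, 6 without CT0 replicate 2. Tatro_005482-T1, with the actin-binding domain of actinin, which bundles actin filaments, had 393, 399 and 464 CPM in MI_4h, against 1022, 1038 and 1043 CPM in CT8. It fell 2.47-fold (log2 -1.31 ± 0.17, adjusted p = 4.37e-07), and against CT0 the change was log2 -0.92, adjusted p = 0.000117. The actin gene Tatro_010755-T1 had 2262, 2198 and 2427 CPM in MI_4h, against 4318, 4070.4 and 3968 CPM in CT8 (log2 -0.84 ± 0.09, adjusted p = 2.68e-08). Here CT0 held 2600.1 ± 109 CPM and did not differ by the test from MI_4h (log2 -0.18, adjusted p = 0.204).

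Tubulins build microtubules, and both named here fell. Alpha tubulin Tatro_003350-T1 had 1393, 1426 and 1528 CPM in MI_4h, against 2342, 2337 and 2117 CPM in CT8 (log2 -0.64 ± 0.09, adjusted p = 1.86e-06). Beta tubulin Tatro_008989-T1, picked after its values were seen, had 1279.9, 1289 and 1425 CPM in MI_4h, against 2046, 2089 and 1933 CPM in CT8 (log2 -0.60 ± 0.09, adjusted p = 3.14e-06). In both genes the lowest control stood well above the highest injured library. An actin-depolymerising factor gene, Tatro_005840-T1, had 169, 209 and 207 CPM in MI_4h, against 298, 319 and 284 CPM in CT8 (log2 -0.62 ± 0.12, adjusted p = 0.000267).

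Chaperones of actin and tubulin were also lower than in CT8. TCP-1 subunits form the ring that folds newly made actin and tubulin. Of 8 TCP-1 genes, a group picked after its values were seen, 5 were lower and 0 higher (median log2 -0.33), and 0 were called against CT0. Tatro_005079-T1 had 247, 265 and 289 CPM in MI_4h, against 436, 464 and 473 CPM in CT8 (log2 -0.78 ± 0.09, adjusted p = 4.99e-08), against CT0 log2 -0.22, adjusted p = 0.101. Phosducin-like proteins assist TCP-1, and Tatro_003121-T1, with the phosducin fold, had 25.5, 28.7 and 33.9 CPM in MI_4h, against 64.9, 67.9 and 64.7 CPM in CT8 (log2 -1.16 ± 0.16, adjusted p = 1.03e-06). Of 25 small GTPase and vesicle traffic genes 8 were lower and 2 higher, with 4 to 5 lower when any MI_4h library, CT8 replicate 1 or CT8 replicate 2 was left out, and 1 higher without MI_4h replicate 1, CT8 replicate 2 or CT8 replicate 3. Library totals as the scale gave 3 lower. Against CT0 2 were lower and 3 higher, and 1 was lower and 1 higher against both controls.

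Ribosomal protein transcripts that were called were all higher than in CT8, by less than 2-fold. Of 66 ribosomal protein genes 31 were higher and 0 lower (median log2 0.39), and 43 were higher with library totals as the scale. Against CT0 30 were higher and 0 lower, and 20 were higher against both controls. These last counts rested on CT0 replicate 2, without which 7 were higher against CT0 and the same number against both. The L6 gene Tatro_009934-T1 had 2380.4, 2516 and 2038 CPM in MI_4h, against 1230.0, 1268 and 1252 CPM in CT8, a 1.85-fold rise (log2 0.89 ± 0.16, adjusted p = 9.69e-05), but against CT0 it was called only with replicate 2 (log2 0.53, adjusted p = 0.0177) and not without it (log2 0.47, adjusted p = 0.0716). L29e, Tatro_002218-T1, had 1705, 1739.9 and 1389 CPM in MI_4h, against 908, 917 and 882 CPM in CT8 (log2 0.84 ± 0.17, adjusted p = 0.000407). L44e, Tatro_009693-T1, had 2052, 2055 and 1616 CPM in MI_4h, against 1109, 1141 and 1102 CPM in CT8 (log2 0.77 ± 0.15, adjusted p = 0.000264). Against CT0 L29e was not called with replicate 2 (log2 0.44, adjusted p = 0.0703) or without it (log2 0.44, adjusted p = 0.13). L44e was called against CT0 with replicate 2 (log2 0.46, adjusted p = 0.0299) and not without it (log2 0.42, adjusted p = 0.0936). Each gene's lowest injured library lay above its highest control.

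Ribosome biogenesis genes depended on the control. Of 27 tested 9 were higher and 0 lower (median log2 0.44), while against CT0 0 were called either way (median 0.09). The 9 became 3 without MI_4h replicate 2, 4 without CT8 replicate 3 and 6 with DESeq2. Nop53, Tatro_003424-T1, an assembly factor of the large ribosomal subunit, had 76.8, 82.3 and 63.4 CPM in MI_4h, against 46.2, 48.5 and 40.6 CPM in CT8 (log2 0.72 ± 0.16, adjusted p = 0.00133), against CT0 log2 0.19, adjusted p = 0.493. Of 24 RNA helicases 7 were higher and 0 lower, and 4 were higher without CT8 replicate 3. Against CT0 1 was higher and 0 lower (1 and 1 without CT0 replicate 2), and 0 were higher against both controls. The DEAD-box helicase Tatro_007082-T1 had 45.5, 47.5 and 38.6 CPM in MI_4h, against 27.0, 23.7 and 28.6 CPM in CT8 (log2 0.72 ± 0.19, adjusted p = 0.00411), and against the mean of both controls it was not called (log2 0.40, adjusted p = 0.0595). Translation factors were higher in 3 of 8 genes, or in 2 and lower in 1 without MI_4h replicate 2. Compared with CT0, 1 of them was higher, and 0 without CT0 replicate 2. tRNA ligases, which charge tRNAs with amino acids, were higher in 1 and lower in 1 of 14, and the class Ic enzyme Tatro_002789-T1 had 194, 273 and 248 CPM in MI_4h, against 355, 374 and 363 CPM in CT8 (log2 -0.61 ± 0.14, adjusted p = 0.00127).

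**Figure D3:**
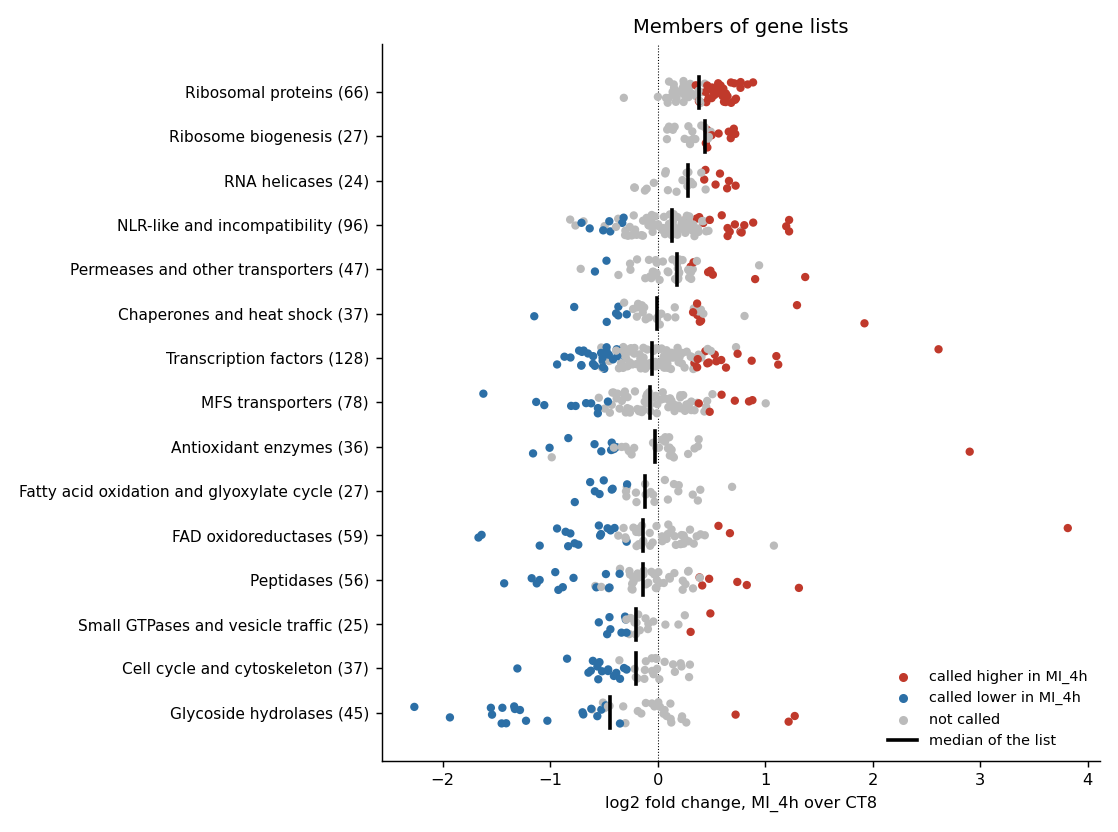
Log2 fold change of MI_4h over CT8 for each tested member of 15 gene lists, 1 point per gene, red where it was called higher in MI_4h, blue where lower and grey where not called, with a bar at the list's median. Ribosomal proteins (median 0.39) and ribosome biogenesis (median 0.44) sit to the right of 0, while glycoside hydrolases (median -0.45) and the cell cycle and cytoskeleton list (median -0.20) sit to the left.

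Among 37 chaperone and heat shock genes 7 were higher and 7 lower (median log2 -0.01), and against CT0 14 were higher and 0 lower (13 without CT0 replicate 2). Leaving out MI_4h replicate 1 gave 4 and 4 against CT8, and leaving out CT8 replicate 3 gave 4 and 6. Small heat shock proteins of the Hsp20 family bind unfolding proteins, and 2 of them were the largest rises of the list. Tatro_002501-T1 had 189, 514 and 178 CPM in MI_4h, against 82.2, 74.4 and 75.7 CPM in CT8 (log2 1.92 ± 0.35, adjusted p = 0.000106). MI_4h replicate 2 stood above the other 2 injured libraries, and without it the rise was 2.35-fold (log2 1.23, adjusted p = 0.00644). Tatro_005350-T1 had 155, 292 and 119 CPM in MI_4h, against 70.2, 85.6 and 75.7 CPM in CT8 (log2 1.30 ± 0.23, adjusted p = 5.64e-05), with the same library highest, and without it the rise was 1.77-fold (log2 0.82, adjusted p = 0.00393). An Hsp70 gene, Tatro_000891-T1, went the other way, at 7.08, 17.1 and 28.0 CPM in MI_4h, against 36.2, 41.9 and 38.8 CPM in CT8 (log2 -1.15 ± 0.34, adjusted p = 0.0121). Its injured libraries were spread, and without MI_4h replicate 1 the log2 change was -0.78 (adjusted p = 0.123).

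Among 36 antioxidant and thioredoxin-fold genes, a list that includes the phosducin gene above, 9 were lower and 1, the catalase-domain gene among the largest rises, was higher. Against CT0 the balance of the list was another, with 5 higher and 3 lower, or 4 and 4 without CT0 replicate 2. The catalase Tatro_008157-T1 had 382, 415 and 446 CPM in MI_4h, against 876, 768 and 851 CPM in CT8 (log2 -1.01 ± 0.12, adjusted p = 1.37e-07), while CT0 held 505 ± 77.6 CPM (log2 -0.28, adjusted p = 0.118). A haem peroxidase, Tatro_009795-T1, had 909, 1212 and 1062 CPM in MI_4h, against 1938, 1894 and 1834 CPM in CT8 (log2 -0.83 ± 0.10, adjusted p = 2.13e-07). In both genes the injured libraries lay below the controls without overlap. Among FAD oxidoreductases 3 were higher and 16 lower of 59 (median log2 -0.14), with 1 higher without MI_4h replicate 2 and 1 higher and 11 lower without CT8 replicate 1.

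P450s and other oxygenases split, with 6 higher and 9 lower of 44. The rises numbered 3 without MI_4h replicate 1 or CT8 replicate 1 and 2 without CT8 replicate 2. Indoleamine 2,3-dioxygenase, Tatro_001832-T1, which opens the ring of tryptophan, had 123, 133 and 143 CPM in MI_4h, against 294, 268 and 274 CPM in CT8 (log2 -1.07 ± 0.16, adjusted p = 6.17e-06). A cytochrome b5-like gene, Tatro_001767-T1, had 178, 303 and 239 CPM in MI_4h, against 517, 506 and 498 CPM in CT8 (log2 -1.08 ± 0.14, adjusted p = 7.19e-07).

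Fatty acid oxidation genes were lower or not called, with 8 of 27 lower and 0 higher, or 5 lower without MI_4h replicate 1. Thiolase, Tatro_003933-T1, which splits off acetyl-CoA at the end of each round of beta-oxidation, had 114, 118 and 101 CPM in MI_4h, against 193, 194 and 183 CPM in CT8 (log2 -0.77 ± 0.13, adjusted p = 3.77e-05), against CT0 log2 -0.17, adjusted p = 0.423. An acyl-CoA dehydrogenase or oxidase, Tatro_000907-T1, had 109, 159.8 and 133 CPM in MI_4h, against 203, 202 and 199 CPM in CT8 (log2 -0.58 ± 0.12, adjusted p = 0.000451). Of 22 genes of lipases and lipid signalling 7 were lower and 1 higher, with 4 lower with library totals as the scale or when MI_4h replicate 1, MI_4h replicate 3 or CT8 replicate 2 was left out. The phosphatidylinositol-specific phospholipase C Tatro_011236-T1 had 21.4, 25.5 and 16.9 CPM in MI_4h, against 45.5, 62.5 and 53.6 CPM in CT8 (log2 -1.33 ± 0.24, adjusted p = 0.000107).

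In amino acid metabolism 14 of 47 genes were lower and 5 higher, or 9 and 5 with library totals as the scale, 7 and 3 without MI_4h replicate 1 and 9 and 4 without CT8 replicate 2. Against CT0 6 were lower and 7 higher, or 4 and 6 without CT0 replicate 2, and 6 were lower and 1 higher against both controls. D-amino acid oxidase, Tatro_002910-T1, which releases hydrogen peroxide and ammonia from D-amino acids, had 119.7, 85.2 and 96.8 CPM in MI_4h, against 32.1, 29.4 and 38.1 CPM in CT8. It rose 3.01-fold (log2 1.59 ± 0.30, adjusted p = 0.000148), and CT0 held 8.90 ± 3.44 CPM, lower still (log2 3.57, adjusted p = 9.39e-09). A class I/II aminotransferase, Tatro_008197-T1, had 232, 237 and 257 CPM in MI_4h, against 468, 457 and 468 CPM in CT8 (log2 -0.94 ± 0.10, adjusted p = 1.76e-08). The glutamine amidotransferase Tatro_009871-T1, of enzymes that move nitrogen from glutamine, had 499, 506 and 586 CPM in MI_4h, against 975, 1031 and 923 CPM in CT8 (log2 -0.88 ± 0.11, adjusted p = 3.19e-07).

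Transporters of the major facilitator superfamily were higher in 6 and lower in 10 of 78. The sign of single members depended on the control. Tatro_004399-T1 had 47.5, 49.8 and 57.3 CPM in MI_4h, against 25.6, 31.4 and 27.3 CPM in CT8 (log2 0.88 ± 0.21, adjusted p = 0.00181), yet it was lower than CT0 (log2 -0.77, adjusted p = 0.00446). Tatro_002881-T1 had 25.3, 26.2 and 32.8 CPM in MI_4h, against 57.0, 57.3 and 61.1 CPM in CT8 (log2 -1.06 ± 0.23, adjusted p = 0.000922) and was above CT0, though not called (log2 0.68, adjusted p = 0.0747). For Tatro_004674-T1 the values were 56.4, 71.1 and 73.8 CPM in MI_4h, against 146, 150.0 and 146 CPM in CT8 (log2 -1.13 ± 0.17, adjusted p = 5.14e-06). In the list of other permeases 7 of 47 were higher and 2 lower, with 3 higher without MI_4h replicate 1, CT8 replicate 2 or CT8 replicate 3 and 4 without CT8 replicate 1. The 2 lower became 0 or 1 when any 1 library was left out. Tatro_007123-T1, with a domain of transporters that is shared with osmosensitive calcium channels, had 103, 97.1 and 94.2 CPM in MI_4h, against 36.7, 35.4 and 41.5 CPM in CT8 (log2 1.37 ± 0.15, adjusted p = 9.94e-09).

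Peptidases were higher in 6 and lower in 13 of 56, or 3 and 11 without CT8 replicate 3. Of 8 aspartic peptidases, a group picked after its values were seen, 2 were higher and 4 lower. Tatro_008494-T1 had 99.9, 164 and 116 CPM in MI_4h, against 58.4, 45.4 and 48.7 CPM in CT8 (log2 1.31 ± 0.33, adjusted p = 0.00289). Tatro_002602-T1 had 54.6, 67.0 and 49.9 CPM in MI_4h, against 129.7, 118 and 139 CPM in CT8 (log2 -1.17 ± 0.13, adjusted p = 1.11e-08) and Tatro_004676-T1 changed by a log2 of -1.13. The S53 peptidase Tatro_007323-T1, of a family active in acid, had 5.66, 7.86 and 5.75 CPM in MI_4h, against 16.8, 16.8 and 18.5 CPM in CT8 (log2 -1.43 ± 0.23, adjusted p = 1.9e-05).

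Of 96 genes with NLR-like or incompatibility texts, domains that in other fungi recognise non-self, 17 were higher and 7 lower (median log2 0.13), or 19 and 2 with library totals as the scale. Their number moved with single libraries: 13 and 1 without MI_4h replicate 1, 11 and 4 without CT8 replicate 1 or CT8 replicate 2, and 15 and 3 without CT8 replicate 3. Ankyrin repeats are protein-binding modules, and of 36 genes whose whole text is that name, picked after their values were seen, 7 were higher and 0 lower. Tatro_006140-T1 had 40.03, 44.8 and 39.3 CPM in MI_4h, against 16.4, 19.4 and 17.6 CPM in CT8 (log2 1.22 ± 0.17, adjusted p = 1.5e-06). Tatro_011140-T1 rose by a similar factor, 2.33-fold (log2 1.22 ± 0.22, adjusted p = 9.8e-05). A ribonuclease III gene, Tatro_006353-T1, of the family of Dicer, had 95.0, 96.4 and 84.0 CPM in MI_4h, against 70.4, 69.3 and 69.2 CPM in CT8 (log2 0.40 ± 0.11, adjusted p = 0.00602). The RNA-dependent RNA polymerase Tatro_003091-T1, which makes double-stranded RNA, had 242, 243 and 296 CPM in MI_4h, against 186, 199 and 225 CPM in CT8 and was not called (log2 0.36 ± 0.17, adjusted p = 0.132).

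Genes that carry consecutive numbers were searched for runs of at least 3 that all rose or all fell at least 2-fold. There were 8 such runs with 24 genes, none longer than 3 genes, and 6 were runs of rises and 2 of falls. Whether consecutive numbers are neighbours on a chromosome was not tested, since no annotation of these gene models was used. The run of Tatro_006915-T1, the FAS1 gene, continued with Tatro_006916-T1, a concanavalin A-like lectin or glucanase at 709.7, 494 and 605 CPM in MI_4h, against 261, 244 and 272 CPM in CT8 (log2 1.22 ± 0.11, adjusted p = 5.72e-10). Its last gene, Tatro_006917-T1, a nucleotide-diphospho-sugar transferase, had 1984, 1419 and 1658 CPM in MI_4h, against 662, 652 and 723 CPM in CT8 (log2 1.31 ± 0.16, adjusted p = 1.37e-07). Another run held the methyltransferase Tatro_007178-T1, the catalase-domain gene Tatro_007179-T1 and the phosphotransferase-fold gene Tatro_007177-T1. Among falls, Tatro_011193-T1, an isoprenoid synthase, had 30.1, 38.7 and 38.0 CPM in MI_4h, against 94.2, 102 and 92.9 CPM in CT8 (log2 -1.43 ± 0.28, adjusted p = 0.000216) in the run that ends with the CHK kinase-like gene. Tatro_004848-T1, a glucose/ribitol dehydrogenase, had 733, 1163 and 987 CPM in MI_4h, against 2330.0, 2487 and 2068 CPM in CT8 (log2 -1.26 ± 0.19, adjusted p = 8.49e-06).

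Genes without a product text held larger rises than those named by the same rule with a text. Their falls given here were not larger than the log2 -2.86 of the WSC gene Tatro_002948-T1. Tatro_007210-T1 had 146, 61.6 and 167 CPM in MI_4h, against 0.462, 1.14 and 1.13 CPM in CT8, a 134-fold rise (log2 7.07 ± 0.48, adjusted p = 1.04e-12), and Tatro_000296-T1 had 43.5, 24.1 and 41.3 CPM in MI_4h, against 0.462, 0.285 and 0.902 CPM in CT8, a 60.1-fold rise (log2 5.91 ± 0.52, adjusted p = 1.47e-10). Their CT8 values rest on few counts, so the sizes of these folds are uncertain. Tatro_004257-T1 took 1.2 to 1.38% of all counts in the MI_4h libraries, more than any other gene there, and was picked for that after its values were seen. It had 13119, 11592 and 11676 CPM in MI_4h, against 2048, 1571 and 1997 CPM in CT8, a 6.48-fold rise (log2 2.70 ± 0.30, adjusted p = 2.59e-08). Falls included Tatro_007100-T1, at 0.809, 2.86 and 1.67 CPM in MI_4h, against 13.2, 8.56 and 11.7 CPM in CT8 (log2 -2.61 ± 0.36, adjusted p = 1.54e-06). The gene that took most counts in CT8, Tatro_002410-T1, had 3874, 2944 and 4516 CPM in MI_4h, against 15573, 40424 and 21490.4 CPM in CT8 (log2 -2.77 ± 1.02, adjusted p = 0.0422). That call was lost when any of the 6 libraries was left out, with adjusted p between 0.0502 and 0.133, and with the replicate number as a block (adjusted p = 0.0539).

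The CFEM gene and the lipoxygenase had another course over the hours after the cut than the hydrophobin. At 30 min the CFEM gene Tatro_008185-T1 averaged 1277 ± 81.1 CPM, at 90 min 425 ± 92.4, at 4 h 118 ± 37.6 and at 8 h 44.2 ± 2.21 CPM (SD, n = 3 each). The lipoxygenase Tatro_003855-T1 averaged 4618 ± 184, 3961 ± 1307, 1310.0 ± 286 and 576 ± 139.8 CPM at the same times. Both were at their highest average at 30 min. The hydrophobin Tatro_007246-T1 ran the other way, at 1.15 ± 1.01 CPM at 30 min, 1.44 ± 0.892 CPM at 90 min, 72.8 ± 21.8 CPM at 4 h and 136 ± 27.9 CPM at 8 h.

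**Figure D4:**
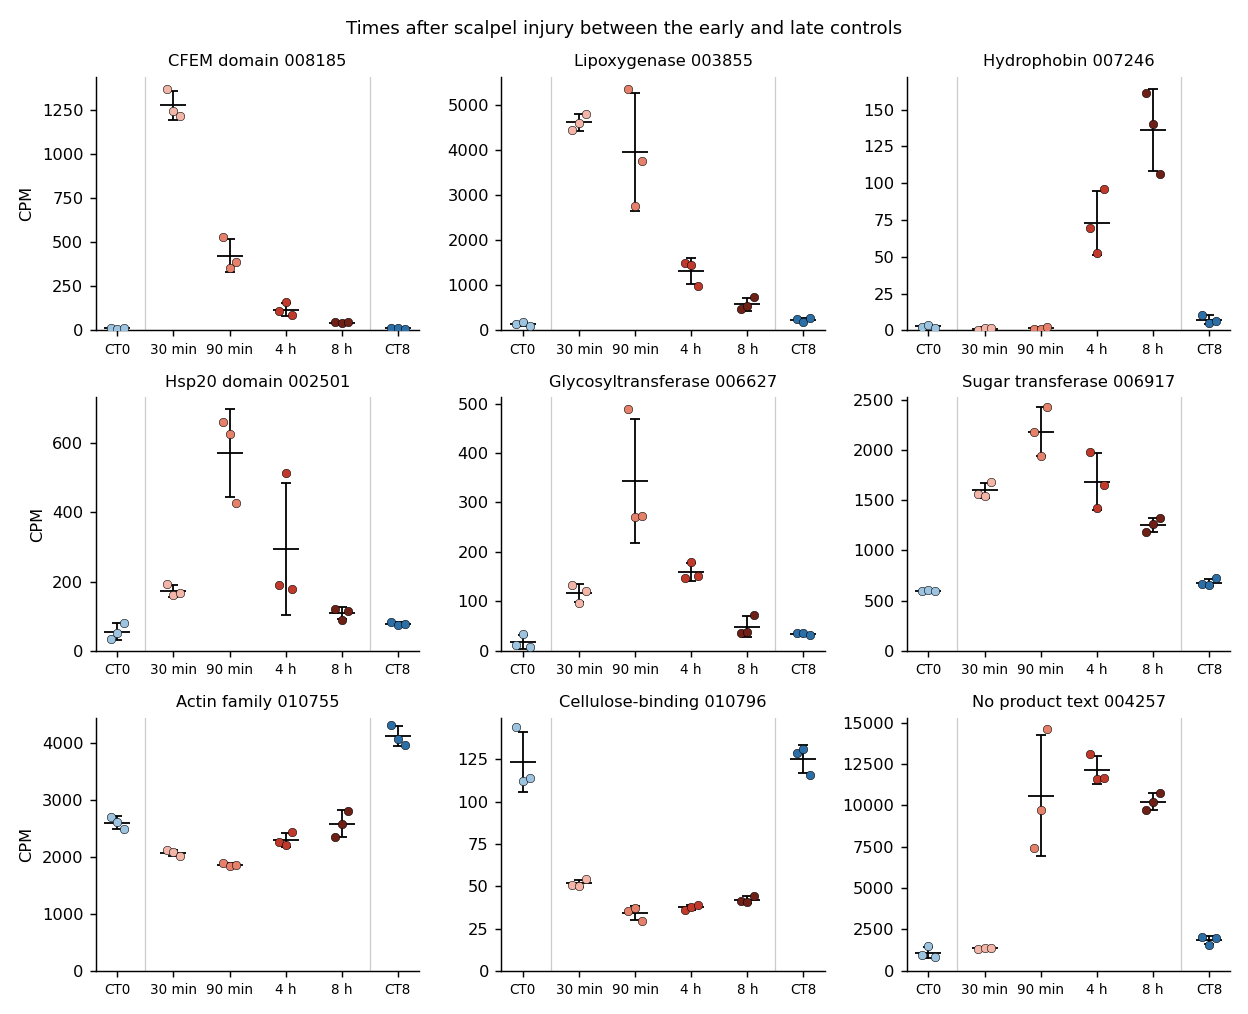
CPM by library for 9 genes in CT0, in injured mycelium at each of the 4 collection times, and in CT8, with the mean and SD of each group's 3 libraries as bars. The CFEM gene and the lipoxygenase have their highest average at 30 min, while the hydrophobin has 69.4, 52.9 and 96.0 CPM in MI_4h and 161, 141 and 106 CPM in MI_8h.

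MI_4h differed from MI_8h in 1137 genes (12.4%), 616 higher (6.7%) and 521 lower (5.67%), with 62 (0.674%) and 144 (1.57%) at least 2-fold. Scaled by library totals, 375 were higher and 596 lower, so here too the split rests on the scaling. Of 66 ribosomal protein genes 44 were higher in MI_4h and 0 lower, as were 18 and 0 of 27 ribosome biogenesis genes. These list counts were not computed with single libraries left out. Without MI_4h replicate 1 all calls against MI_8h numbered 540, and L6, L44e and Nop53 lost theirs. Of the NLR-like list 10 were higher and 13 lower.

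Of the 5 genes with a text that stood furthest above their 8 h level, 2 code for enzymes of D-amino acids. D-amino acid oxidase Tatro_002910-T1 had 119.7, 85.2 and 96.8 CPM in MI_4h, against 16.6, 24.0 and 36.6 CPM in MI_8h (3.90-fold, log2 1.96 ± 0.30, adjusted p = 3.1e-05). Alanine racemase Tatro_002724-T1, which interconverts L- and D-alanine, had 19.6, 14.1 and 17.6 CPM in MI_4h, against 5.37, 5.09 and 4.43 CPM in MI_8h (3.42-fold, log2 1.77 ± 0.27, adjusted p = 2.05e-05). The same gene had 3.23, 5.13 and 5.18 CPM in CT8, below MI_4h and overlapping MI_8h. The transcription factor Tatro_008005-T1 was 3.49-fold higher (log2 1.80 ± 0.25, adjusted p = 5.72e-06) and the family 1 glycosyltransferase Tatro_006627-T1 3.32-fold higher (log2 1.73 ± 0.33, adjusted p = 0.000473). A gene with a lysozyme-like domain, Tatro_002167-T1, had 23.7, 17.1 and 12.98 CPM in MI_4h, against 3.27, 6.31 and 6.999 CPM in MI_8h (log2 1.68 ± 0.34, adjusted p = 0.00104). Its level was above both in the untreated libraries, with 32.5, 35.9 and 35.6 CPM in CT8.

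Of the 5 genes with a text that stood furthest below their 8 h level, 2 carry ankyrin repeats. Tatro_000365-T1 had 21.6, 41.6 and 66.2 CPM in MI_4h, against 205, 166 and 163 CPM in MI_8h (4.11-fold lower, log2 -2.04 ± 0.27, adjusted p = 2.21e-06). It had 36.0, 41.1 and 39.7 CPM in CT8, within the range of MI_4h. Its neighbour by number Tatro_000364-T1, an AAA+ ATPase, had 16.2, 18.4 and 34.5 CPM in MI_4h, against 71.5, 67.1 and 66.0 CPM in MI_8h (log2 -1.56 ± 0.24, adjusted p = 2.42e-05). A second ankyrin gene, Tatro_007955-T1, had 4.25, 6.61 and 10.0 CPM in MI_4h, against 26.2, 31.7 and 23.3 CPM in MI_8h (log2 -1.95 ± 0.31, adjusted p = 4.06e-05). Tatro_000952-T1, of the GPR1/FUN34/yaaH family of acetate transporters, had 5.86, 13.2 and 11.1 CPM in MI_4h, against 34.6, 33.0 and 49.9 CPM in MI_8h (log2 -1.94 ± 0.26, adjusted p = 3.09e-06). The Hsp70 gene Tatro_000891-T1 was also lower, at 7.08, 17.1 and 28.0 CPM in MI_4h, against 63.3, 51.1 and 51.3 CPM in MI_8h (log2 -1.65 ± 0.33, adjusted p = 0.000989), so its MI_4h libraries lay below those of both CT8 and MI_8h.

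At the same hour, MI_4h differed from larva-grazed mycelium in 562 genes (6.11%), 204 higher (2.22%) and 358 lower (3.89%), with 53 (0.577%) and 93 (1.01%) at least 2-fold. Under library totals 291 were higher and 193 lower, so the larger side of this split turned with the scaling. Dm_4h libraries were shallower than those of MI_4h, with 2510820 to 4052175 counts. None of the ribosomal protein, ribosome biogenesis or RNA helicase genes was called between them. The lipoxygenase Tatro_003855-T1 had 1488, 1461 and 981 CPM in MI_4h, against 1049, 1827 and 1011 CPM in Dm_4h (log2 0.02 ± 0.26, adjusted p = 0.984). The hydrophobin Tatro_007246-T1 held 75.5, 58.4 and 73.7 CPM in Dm_4h, in the range of the injured libraries.

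Of 3 tested genes with the Hsp20 text, the 2 described above were higher after the scalpel than after larvae. Hsp20 gene Tatro_002501-T1 had 189, 514 and 178 CPM in MI_4h, against 54.4, 52.6 and 83.3 CPM in Dm_4h (4.57-fold, log2 2.19 ± 0.36, adjusted p = 0.000119). Without MI_4h replicate 2, its highest library, the difference was 2.85-fold (log2 1.51, adjusted p = 0.00497). The second Hsp20 gene, Tatro_005350-T1, had 155, 292 and 119 CPM in MI_4h, against 56.8, 68.4 and 67.5 CPM in Dm_4h (2.94-fold, log2 1.56 ± 0.23, adjusted p = 3.65e-05). In CT8 the values given above for the first gene overlapped those of the grazed libraries, and those of the second lay just above them. D-amino acid oxidase Tatro_002910-T1 was 3.19-fold higher (log2 1.67 ± 0.31, adjusted p = 0.000573). A family 47 glycoside hydrolase, Tatro_004830-T1, of mannosidases that trim N-glycans, had 61.5, 53.7 and 31.5 CPM in MI_4h, against 13.2, 17.8 and 11.7 CPM in Dm_4h (log2 1.81 ± 0.28, adjusted p = 6.04e-05). Both lay below the 105, 75.6 and 117 CPM in CT8. The pyoverdine biosynthesis-like gene Tatro_009209-T1 was 2.65-fold higher (log2 1.41 ± 0.34, adjusted p = 0.00873), a call lost without MI_4h replicate 1 (adjusted p = 0.0806) or Dm_4h replicate 1 (adjusted p = 0.0647).

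Lower after the scalpel than after larvae were a pair of genes with consecutive numbers, the cytochrome b5-like Tatro_006594-T1 and the cytochrome P450 Tatro_006595-T1. Tatro_006594-T1 had 0.809, 3.75 and 1.67 CPM in MI_4h, against 16.6, 59.3 and 10.0 CPM in Dm_4h (12.5-fold lower, log2 -3.64 ± 0.56, adjusted p = 4.69e-05). Tatro_006595-T1 had 4.25, 11.2 and 5.75 CPM in MI_4h, against 28.8, 142 and 28.0 CPM in Dm_4h (8.84-fold lower, log2 -3.14 ± 0.47, adjusted p = 3.15e-05). Replicate 2 was the highest library of both groups in both genes, and the MI_4h values of the first rest on few counts. Without Dm_4h replicate 2 Tatro_006594-T1 was 6.04-fold and Tatro_006595-T1 3.94-fold lower, and without MI_4h replicate 2 Tatro_006594-T1 was 20.9-fold lower. Neither gene was called between MI_4h and MI_8h (log2 0.19, adjusted p = 0.922, and log2 0.12, adjusted p = 0.935). Against CT0 neither was called, with its replicate 2 (log2 0.165, adjusted p = 0.933, and log2 0.736, adjusted p = 0.522) or without it. The ankyrin gene Tatro_000365-T1 was lower too, with 192, 163 and 156 CPM in Dm_4h (log2 -1.97 ± 0.27, adjusted p = 1e-05), as were the Hsp70 gene Tatro_000891-T1 (log2 -1.96 ± 0.34, adjusted p = 0.000197) and the tetratricopeptide repeat gene Tatro_000006-T1 (log2 -1.91 ± 0.26, adjusted p = 6.61e-06). Of 96 NLR-like genes 1 was higher and 12 lower in MI_4h than in Dm_4h.

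**Figure D5:**
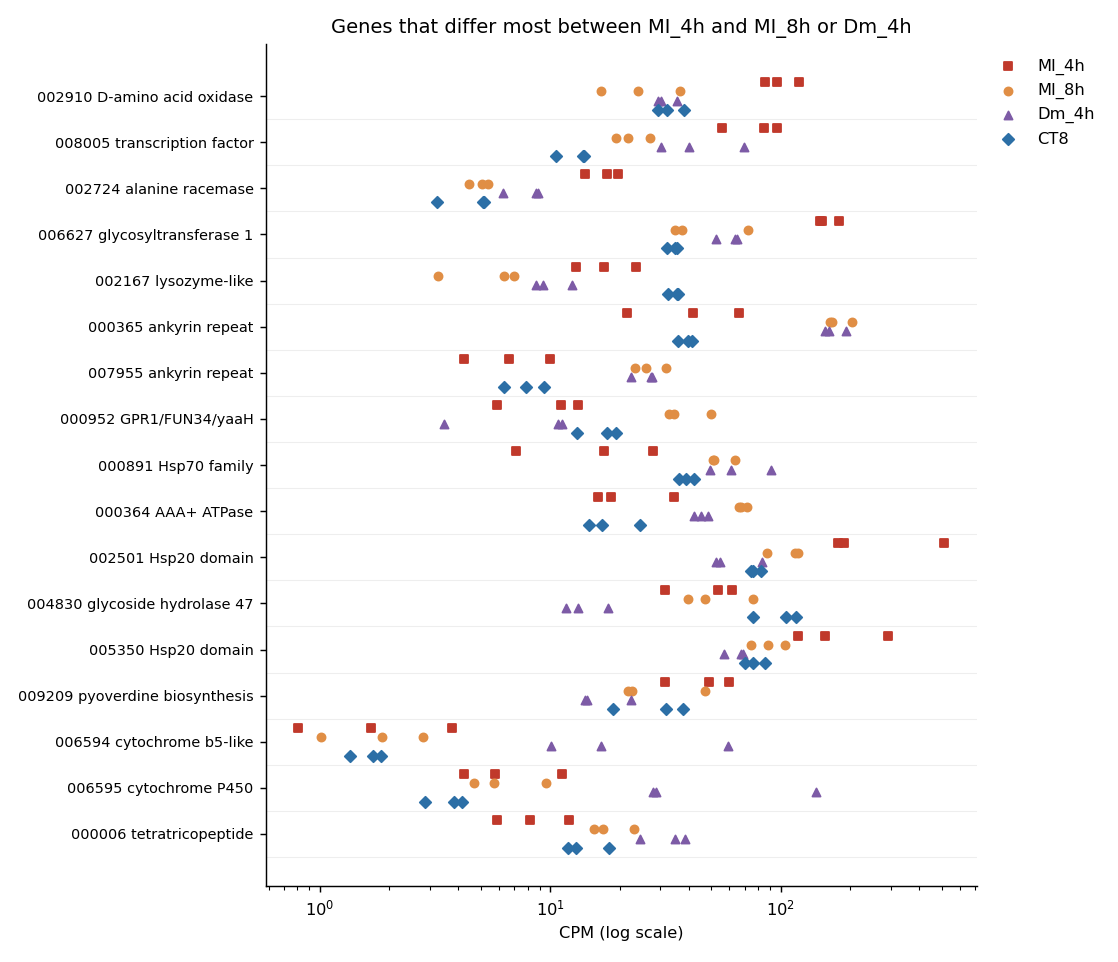
CPM on a log axis by library in MI_4h, MI_8h, Dm_4h and CT8 for the genes with the largest differences of MI_4h from MI_8h or from Dm_4h. The ankyrin gene Tatro_000365-T1 is at 21.6, 41.6 and 66.2 CPM in MI_4h and at 156 CPM or more in every library of MI_8h and Dm_4h, while D-amino acid oxidase Tatro_002910-T1 is higher in every MI_4h library than in any library of the other 3 groups.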

How the data were processed

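Total RNA of mycelium was extracted with TRIzol and made into libraries with a strand-specific kit, per the labels' protocols. Read quality, alignment and counting tools in the submitters' processing notes are FastQC 0.11.6, HISAT2 2.1.0 as aligner and the counter HTSeq 0.14.1. Build, annotation and strand setting: not given in the sources used here. Values of overlapping, antisense and near-identical genes are therefore uncertain. Raw counts were deposited by the authors for 12018 transcript models of 11786 genes, and in all 204 genes with several models these held identical counts, so 1 model was kept. They also deposited tables of log2 fold changes with p-values and false discovery rates, per the file headers. The table of the 4 h injury group was used for the sentence that names it (highest listed false discovery rate 0.00488), and its fold changes differed least from the fit with both controls averaged (mean absolute log2 difference 0.0471, 0.149 for CT8 and 0.199 for CT0). That of the 30 min injury group was used for its product texts, and the other 7 were not used. Gene models matched no entry of the reference gene table, so no sequence or coordinate is printed.

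In R 4.3.3, edgeR 4.0.16 fitted all 42 libraries in a quasi-likelihood model of the 14 groups, with TMM factors and edgeR's default expression filter (9193 genes). P-values were Benjamini-Hochberg adjusted over all genes tested at a threshold of 0.05, and called, higher, lower, rose and fell mean past it. Levels are CPM, counts scaled by library total and TMM factor, and are not per length. Fold changes carry a standard error (the log2 change over the square root of F). DESeq2 1.42.0, other scalings, controls and filters, a replicate block and leaving out single libraries were tried, and the fit was tested on simulated data.

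Lists are word patterns on product texts, 36 in all. The members and lists were chosen with earlier results of these data known, and some patterns were corrected for accidental word matches after counts had been seen. Genes named by rule are the 12 largest rises and falls with a text and the 2 largest without, among called genes whose higher group averaged 10 CPM or more and whose groups did not overlap. Up to 4 called members by size for each list of at least 5 genes follow, with MAP kinase, G-protein and RNA silencing genes, the runs, and the 5 largest differences each way from MI_8h and from Dm_4h. Of the 174 genes this gives, the text holds a part.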

Additional observations from a re-analysis of the deposited data

Results flagged for a closer look

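Among the 97 genes given with values above, 40 differed between MI_4h and MI_8h, so that their difference from the untreated state at 4 h was not that at 8 h, and 23 of them differed at least 2-fold. Of all genes tested 12.4% differed between these groups. The 97 include 10 genes named for this very difference, for which it is a description and no test. Most of the others were chosen by differences of the same MI_4h libraries from CT8 or Dm_4h. The 40 are therefore not to be read against the share over all genes. MI_4h and MI_8h share the control CT8, so the difference of their effects is the log2 difference of MI_4h from MI_8h given here, with adjusted p up to 0.0449 in edgeR's quasi-likelihood test. When each library of the 2 groups was left out in turn, a step added after seeing the data, 19 of the 40 stayed called throughout and 21 lost their call at least once.

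Of the 40, 23 were higher in MI_4h. Those named for this difference were D-amino acid oxidase Tatro_002910-T1 (1.96), the transcription factor Tatro_008005-T1 (1.8), alanine racemase Tatro_002724-T1 (1.77), the family 1 glycosyltransferase Tatro_006627-T1 (1.73) and the lysozyme-like Tatro_002167-T1 (1.68). Others were the untexted Tatro_007210-T1 (1.75), the Hsp20 genes Tatro_002501-T1 (1.45) and Tatro_005350-T1 (1.09), the CFEM gene Tatro_008185-T1 (1.41) and the untexted Tatro_000296-T1 (1.17). The same held for the zinc finger gene Tatro_002233-T1 (1.4), the EF-hand gene Tatro_003395-T1 (1.3), the lipoxygenase Tatro_003855-T1 (1.18), the RGS gene Tatro_004091-T1 (0.68) and the receptor Tatro_008852-T1 (0.65). Also higher were the facilitator Tatro_004399-T1 (0.99), Tatro_007123-T1 (0.62) and the ankyrin gene Tatro_006140-T1 (0.59). So were L6 Tatro_009934-T1 (0.56), L44e Tatro_009693-T1 (0.54), Nop53 Tatro_003424-T1 (0.58) and the DEAD-box helicase Tatro_007082-T1 (0.55), and the glucanase-fold gene Tatro_006916-T1 differed by 0.42. The calls of L6, L44e, Nop53, the helicase and the glucanase-fold gene were lost when some single library was left out. So were those of the Hsp20 genes, the zinc finger gene, the RGS gene and the ankyrin gene, while the other calls in this direction stayed.

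The other 17 were lower in MI_4h. Those named for this difference were the ankyrin genes Tatro_000365-T1 (-2.04) and Tatro_007955-T1 (-1.95), Tatro_000952-T1 (-1.94), Hsp70 Tatro_000891-T1 (-1.65) and the AAA+ ATPase Tatro_000364-T1 (-1.56). Others were the tetratricopeptide gene Tatro_000006-T1 (-1.08), the WSC gene Tatro_002948-T1 (-1.18), the dimeric alpha-beta barrel gene Tatro_002075-T1 (-1.13), the family 28 hydrolase Tatro_010893-T1 (-1.1), the fibronectin type III-like Tatro_004668-T1 (-1.04) and the hydrophobin Tatro_007246-T1 (-0.9). The rest were the actinin-type Tatro_005482-T1 (-0.59), the kinase-like Tatro_011195-T1 (-0.55), the cytochrome b5-like Tatro_001767-T1 (-0.52), the acyl-CoA enzyme Tatro_000907-T1 (-0.52), catalase Tatro_008157-T1 (-0.42) and the amidotransferase Tatro_009871-T1 (-0.33). Among these lower genes, only those named for this difference and the hydrophobin stayed called whichever library was left out.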

How the results depend on the processing

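The 2246 calls against CT8 (374 at least 2-fold) became 2054 with library totals, 2238 with RLE factors, 2136 with DESeq2, 2080 without a filter on low counts and 2180 against the mean of both controls. Fitting only the 6 libraries gave 3119 calls. Called in the same direction against both controls were 927, a rule chosen after seeing the data, 279 of them at least 2-fold against CT8, and 810 without CT0 replicate 2. Leaving out 1 library gave 1406 to 1922 calls and 303 to 412 at least 2-fold against CT8, 540 to 1016 against MI_8h and 201 to 528 against Dm_4h, the lowest against CT8 without MI_4h replicate 1. Against CT0, 3 named genes took the other sign and were called in at least one comparison: Tatro_004399-T1 (-0.77), Tatro_002881-T1 (0.68) and Tatro_003677-T1 (0.45), and the cause was not tested. Of the 97 genes, 85 were called, and these kept direction and call with library totals, RLE factors, DESeq2 and no filter. The 12 that were not called stayed so in these settings, and their direction was not compared. Same-numbered libraries of the compared groups did not deviate together (r -0.04 to 0.104), so the numbers do not pair them, and with the replicate number as a block 2225 were called against CT8 (377 at least 2-fold), 1123 against MI_8h and 542 against Dm_4h. Depth limits genes with few counts in CT8, whose folds are uncertain.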

Other observations

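Other gene groups were counted in the comparison of MI_4h with CT8. Of 36 proteasome and ubiquitin genes 10 were lower and 3 higher, and 6 lower and 1 higher without MI_4h replicate 1 or CT8 replicate 3. Alpha/beta hydrolases were lower in 14 and higher in 7 of 70, or in 8 and 8 with library totals as the scale, 8 and 4 without MI_4h replicate 1, 11 and 3 without CT8 replicate 2 and 9 and 7 without CT8 replicate 3. Short-chain dehydrogenases were higher in 5 and lower in 4 of 31, or in 3 and 2 without MI_4h replicate 1. Of 32 DNA replication and repair genes 2 were higher and 3 lower, and of 15 endoplasmic reticulum and glycosylation genes 4 were higher and 2 lower. Fatty acid and sterol synthesis genes were higher in 2 and lower in 4 of 17, mitochondrial respiration genes higher in 2 and lower in 1 of 7, and secondary metabolism genes higher in 1 and lower in 1 of 4. Leaving out single libraries moved the counts of these last 5 lists by more than 1.5 times.

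Groups of genes that share a whole product text were also picked after their values were seen. Of 7 genes with the text GTP binding domain 5 were higher and 0 lower (median log2 0.53). Of 5 putative alpha-1,2-mannosidases 3 were lower and 0 higher (median log2 -0.68), and of 4 family 47 glycoside hydrolases 2 were lower and 0 higher (median log2 -0.44).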
